A study of Mus musculus with 6 samples.

Results

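AP-1 is the clathrin adaptor that sorts membrane cargo between the trans-Golgi network and endosomes, and the values below cover its subunits together with Wdfy1, the gene next to the AP-1 sigma subunit gene Ap1s3. The 8 genes were Ap1s1, Ap1s2, Ap1s3, Ap1m1, Ap1m2, Ap1g1, Ap1b1 and Wdfy1. All probe sets (groups of oligonucleotide probes for one transcript) whose platform annotation gave exactly 1 symbol from this list were taken, 22 of the 45101 on the array. They stand for 8 of the 18194 gene symbols that the annotation gives alone. The set was chosen from measured values, namely the lower signal of both Ap1s3 and Wdfy1 in the knockout kidneys, so the difference between knockout and normal arrays for these genes is described without a test. The other AP-1 subunits came in as members of the complex and not by their own values, and they were tested.

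The samples were whole mouse kidneys at embryonic day 12.5, 3 labelled normal and 3 labelled beta-catenin conditional knockout, each on 1 single-colour Affymetrix array made from 1 µg of total RNA. Per the series' description, the knockout mice carry a b-catenin allele (Ctnnb1) with loxP sites around exons 2 to 6, crossed to Hoxb7-Cre:Gfp mice, and the knockout source name reads Hoxb7-Cre,Gfp. The Hoxb7 promoter drives expression in the ureteric bud, the epithelium from which the collecting ducts form, so mesenchyme, stroma and vessels in the same sample are not the target of the recombinase. Array numbers below are the replicate numbers of the titles. The labels call the samples biological replicates and share kidneys out at random among vials, but they give no number of animals, no strain and no Cre or loxP genotype for the normal kidneys. Groups follow the titles, since the description field of the knockout samples repeats the wording for normal kidneys.

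Values are deposited MAS5 signals, on a linear scale, and correlations between the arrays were 0.951 or higher on the log2 scale. The targeted gene gave no lower signal after knockout: among 3 Ctnnb1 probe sets the brightest differed by 0.09 (SE 0.08) on the log2 scale (limma adjusted p = 0.694), and the array values therefore do not check the labels. The skeletal muscle list, with 9 of its 10 markers above the filter and Ckm below it, summed to between 403 and 507 on the normal arrays and to 1137, 6706 and 494.8 on knockout arrays 1 to 3. The chromaffin and neural list, with 8 markers above the filter, summed to 1722, 276 and 470.0 on normal arrays 1 to 3 and to 1280, 649 and 317 on knockout arrays 1 to 3. The erythroid list, with 3 markers above the filter (Alas2, Klf1 and Slc4a1), summed to 137, 428 and 171 on the normal arrays and to 490, 290 and 671 on the knockout arrays. The mean log2 signal of the 10 nephron progenitor and early nephron markers was taken with the normal mean set to 0. It was 0.05, 0.01 and -0.05 on the normal arrays and -0.13, -0.34 and -0.07 on the knockout arrays. The groups did not overlap in this mean, by a narrow margin, although their summed signals did. The markers went both ways, with 7 lower and 3 higher by sign. Wnt4 (-0.95), Jag1 (-0.57) and Lhx1 (-0.43) were lower without overlap, and Meox1 (0.66) and Osr1 (0.61) higher without overlap. These 5 are 50% of the list, compared with 19.3% of all genes without overlap. Below an unadjusted p of 0.05 by limma were 5 of these 10 markers (50%) and all 3 erythroid markers, compared with 11.7% of all genes. The count was 4 of 9 in the muscle list, 2 of 9 in the macrophage list and 2 of 8 in the endothelium list. It was 2 of 7 for stroma, 2 of 16 for ureteric epithelium and 0 of 8 for chromaffin and neural markers. The summed signals of the stroma list (7 markers) and the endothelium list (8 markers) overlapped between the groups. No marker passed the threshold (limma with Benjamini-Hochberg adjustment), and the part of these cells in the results below was not tested.

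AP-1 is a heterotetramer of the large subunits gamma (Ap1g1) and beta1 (Ap1b1), a medium subunit, mu1A (Ap1m1) or mu1B (Ap1m2), and a small sigma1 subunit made by Ap1s1, Ap1s2 or Ap1s3. The GTPase Arf1 recruits the complex to the membrane. The mu subunit binds tyrosine-based sorting signals of cargo, the gamma and sigma subunits bind dileucine signals, and the large subunits bind clathrin and accessory proteins. The form with mu1B is found in polarised epithelia, where it sorts proteins to the basolateral membrane. Wdfy1 is a WD-repeat protein with a FYVE domain, which binds phosphatidylinositol 3-phosphate on early endosomes, and it is also known as an adaptor in Toll-like receptor 3 and 4 signalling.

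In the RefSeq promoter table (assembly GRCm38.p6), which runs from 250 bases before to 50 after a gene's start, 6 of the 8 genes had an entry: Ap1s3, Ap1s1, Ap1s2, Ap1m2, Ap1g1 and Ap1b1. The promoters of the sigma subunits are printed because Ap1s3 had the largest difference in the complex and Ap1s1 and Ap1s2 encode the alternatives to its product. Ap1s3 lies at chr1:79671923-79672222 on the minus strand, Ap1s1 at chr5:137046059-137046358 on the minus strand and Ap1s2 at chrX:163908767-163909066 on the plus strand. Sequences run 5′ to 3′ along the gene, and capitals mark matches on either strand to the motifs named after them.
Ap1s3: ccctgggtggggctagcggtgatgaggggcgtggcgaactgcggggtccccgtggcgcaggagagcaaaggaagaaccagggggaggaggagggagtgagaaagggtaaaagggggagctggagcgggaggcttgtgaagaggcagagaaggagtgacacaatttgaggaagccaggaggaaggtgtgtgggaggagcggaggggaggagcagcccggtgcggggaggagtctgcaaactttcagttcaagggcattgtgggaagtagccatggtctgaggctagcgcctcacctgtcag
Ap1s1: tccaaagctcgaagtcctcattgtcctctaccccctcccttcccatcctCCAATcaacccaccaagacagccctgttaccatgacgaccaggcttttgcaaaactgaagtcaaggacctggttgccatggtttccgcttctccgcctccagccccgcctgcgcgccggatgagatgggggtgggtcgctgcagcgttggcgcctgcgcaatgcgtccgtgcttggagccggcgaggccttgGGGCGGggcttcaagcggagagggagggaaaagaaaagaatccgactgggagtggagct
Ap1s2: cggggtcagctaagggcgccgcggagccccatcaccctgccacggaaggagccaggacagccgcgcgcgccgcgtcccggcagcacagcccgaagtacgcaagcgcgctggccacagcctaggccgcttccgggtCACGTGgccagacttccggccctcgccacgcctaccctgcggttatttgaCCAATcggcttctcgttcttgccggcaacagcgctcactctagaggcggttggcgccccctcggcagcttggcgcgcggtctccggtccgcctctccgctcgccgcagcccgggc
The letters searched were CTTTGAT, the core recognised by the TCF/LEF factors that partner beta-catenin, CACGTG, the E-box, which is also the core of the site of the lysosomal regulator TFEB, CCAAT and GGGCGG (the GC box), each on both strands. No match overlapped another. The Ap1s3 promoter held none of these letters, and neither did that of Ap1m2, which is not printed. The Ap1s1 promoter had CCAAT at 201 bases and GGGCGG at 9 bases before the start. The Ap1s2 promoter had CACGTG at 115 bases and CCAAT at 65 bases before it. CTTTGAT was in none of the 6 promoters and in 3.73% of the 32851 promoters of the table, CACGTG in 7.15%, CCAAT in 37.4% and GGGCGG in 35.7%. Of the 6 promoters, that of Ap1s2 was the richest in G and C, at 71.7%, and Ap1s3 stood at 62.0%, against a median of 52.7% over the table.

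The sigma subunits came first in the comparison, because the difference within the complex lay there. Ap1s3, which encodes sigma1C, had 1 probe set (1455735_at). It read 269, 380 and 409 on normal arrays 1 to 3 and 46.5, 111 and 97.0 on knockout arrays 1 to 3. Every knockout array lay below every normal array, with knockout replicate 1 the lowest. The means were 353 ± 73.7 and 84.8 ± 33.9 (SD, n = 3 per group), and the log2 difference of -2.13 (SE 0.31) leaves 22.9% of the normal signal. The kidneys were measured whole, so fewer cells of a type and less RNA per cell cannot be told apart. No other probe set in the annotation carries this symbol alone, so the value rests on 1 probe set.

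Ap1s1, which encodes the widely expressed sigma1A, was measured by 1 probe set (1416087_at). It read 333, 405 and 384 on normal arrays 1 to 3 and 414, 425 and 437 on knockout arrays 1 to 3. The knockout arrays lay above the normal arrays by a narrow margin, with a log2 difference of 0.19 (SE 0.10, 95% interval from -0.04 to 0.42), and the gene did not pass (limma adjusted p = 0.515). Ap1s2, the X-linked gene for sigma1B, had 6 probe sets, of which 4 lay above the filter on dim probe sets, a mean signal of 14.7. Its brightest (1452657_at) read 201, 213 and 199 on normal arrays 1 to 3 and 187, 242 and 212 on knockout arrays 1 to 3. The groups overlapped, with a log2 difference of 0.06 (SE 0.13, 95% interval from -0.23 to 0.34, limma adjusted p = 0.889). The next Ap1s2 probe sets stood at -0.08 (1460036_at) and 0.05 (1447903_x_at), with overlapping groups. The dim one, 1444361_at, read 19.1, 19.0 and 28.9 on the normal arrays and 18.1, 10.8 and 16.8 on the knockout arrays, a log2 difference of -0.56 (SE 0.37, limma adjusted p = 0.59). The other two, 1456252_x_at and 1437998_at, were below the filter, at most 11.2 and 6.8 on any array.

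Set against the other sigma subunits within each array, Ap1s3 was lower in every knockout array. With the normal mean set to 0, the log2 ratio of Ap1s3 to Ap1s1 was -3.05, -1.84 and -2.07 on knockout arrays 1 to 3, and between -0.20 and 0.19 on the normal arrays. For Ap1s3 to Ap1s2 it was -2.77, -1.89 and -1.89 on knockout arrays 1 to 3 and between -0.34 and 0.27 on the normal arrays. These ratios show unequal change within an array and have no test, since Ap1s3 was chosen for its difference.

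Wdfy1, the endosomal FYVE protein, had 5 probe sets. The brightest (1437358_at) read 320, 243 and 238 on normal arrays 1 to 3 and 60.3, 110 and 53.7 on knockout arrays 1 to 3. The groups did not overlap, and knockout replicate 2 was the highest of its group. The means were 267 ± 45.8 and 74.8 ± 31.0 (SD, n = 3 per group). The log2 difference of -1.90 (SE 0.26) leaves 26.8% of the normal signal. Probe set 1435588_at read 216, 137 and 168 on the normal arrays and 39.2, 98.2 and 44.3 on the knockout arrays, a log2 difference of -1.62 (SE 0.33). Probe set 1424749_at read 118, 103 and 128 on the normal arrays and 38.2, 38.7 and 27.8 on the knockout arrays, a log2 difference of -1.74 (SE 0.21). For these 3 probe sets the knockout arrays lay below all normal arrays, as they did for 8.69% of the 27022 probe sets above the filter.

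The dimmer Wdfy1 probe sets behaved otherwise. Probe set 1453426_a_at read 30.6, 30.5 and 23.8 on normal arrays 1 to 3 and 24.5, 12.3 and 12.5 on knockout arrays 1 to 3. Knockout replicate 1 lay within the normal range and the log2 difference was -0.85 (SE 0.37). Probe set 1447543_at was below the filter, at 9.5 or lower on every array. With the mean of all 5 probe sets, the dim ones included, the Wdfy1 difference was -1.01.

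**Figure D1:**
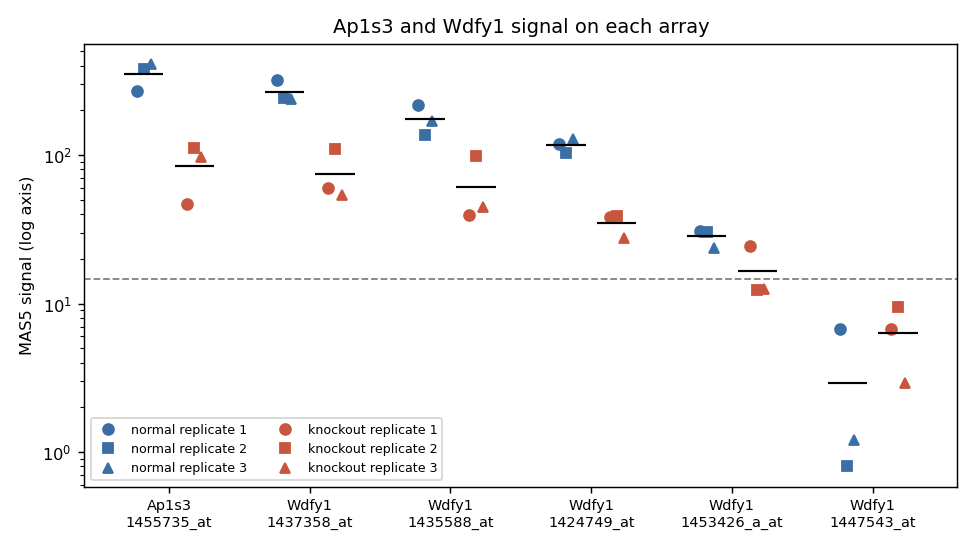
MAS5 signal (log axis) of the Ap1s3 probe set and the 5 Wdfy1 probe sets on each array, normal arrays in blue and knockout arrays in red, with bars at the group means and a dashed line at the filter of 14.7. The knockout arrays lie below the normal arrays for Ap1s3 and the 3 brighter Wdfy1 probe sets, and overlap with them for the 2 dimmer ones.

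By their brightest probe sets, Ap1s3 and Wdfy1 did not follow the same order of replicates within either group. Among the normal arrays, replicate 1 had the lowest Ap1s3 (269) and the highest Wdfy1 (320). Among the knockout arrays, replicate 2 was the highest for both genes, at 111 and 110, and it was also the array with the highest muscle sum and the highest macrophage sum (1400, with 9 of 9 markers above the filter, against 953 and 1032 in knockout replicates 1 and 3 and 491 to 1056 on the normal arrays). The part of these cell types in the values was not tested. The order of replicates varied among the Wdfy1 probe sets. On knockout arrays 1 to 3, 1435588_at read 39.2, 98.2 and 44.3, which is the order of Ap1s3. There 1424749_at read 38.2, 38.7 and 27.8, and the dim 1453426_a_at was highest in replicate 1, at 24.5. Among the normal arrays 1424749_at was highest in replicate 3 (128), as Ap1s3 was. Without knockout replicate 2 the differences were -2.37 for Ap1s3 and -2.22 for Wdfy1, and without knockout replicate 1 they were -1.74 and -1.78. The log2 ratio of Ap1s3 to Wdfy1, with the normal mean set to 0, ran from -0.64 to 0.39 on the normal arrays and from -0.77 to 0.46 on the knockout arrays, and the 2 ranges overlapped.

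The medium subunits showed no difference past the threshold. Ap1m1, the broadly expressed mu1A, had 2 probe sets. The brighter (1459832_s_at) read 523, 652 and 501 on the normal arrays and 485, 502 and 653 on the knockout arrays. The groups overlapped throughout, with a log2 difference of -0.04 (SE 0.14, 95% interval from -0.36 to 0.29, limma adjusted p = 0.944). The other Ap1m1 probe set (1416307_at) stood at -0.13 (SE 0.10), also with overlapping groups. Ap1m2, the epithelial mu1B, was measured by 1 probe set (1460190_at). It read 142, 160 and 148 on normal arrays 1 to 3 and 163, 116 and 145 on knockout arrays 1 to 3. Knockout replicates 1 and 2 were the highest and the lowest of the 6 arrays, and the log2 difference was -0.09 (SE 0.15, 95% interval from -0.44 to 0.26, limma adjusted p = 0.846).

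The ureteric epithelium markers stood beside Ap1m2 in the same order within the knockout group. Above the filter were 16 of these markers, and Hoxb7 lay below it. Their summed signal was 5412, 5881 and 4906 on normal arrays 1 to 3 and 6184, 4161 and 5335 on knockout arrays 1 to 3. Knockout replicate 2 was lowest and knockout replicate 1 highest both in this sum and in Ap1m2. Among the normal arrays replicate 2 was highest in both, but replicate 1 was lowest in Ap1m2 and replicate 3 in the sum. Calb1 alone gave 2302, 1204 and 1940 of the sum on knockout arrays 1 to 3. The part of the share of epithelium in the Ap1m2 values was not tested. The log2 ratio of Ap1m2 to Ap1m1, with the normal mean set to 0, was 0.32, -0.22 and -0.28 on knockout arrays 1 to 3 and between -0.14 and 0.13 on the normal arrays.

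The large subunits had no probe set past the threshold. Ap1g1, the gamma subunit, had 5 probe sets, 4 of them above the filter. Its brightest (1434081_at) read 286, 256 and 281 on the normal arrays and 261, 257 and 282 on the knockout arrays, with a log2 difference of -0.04 (SE 0.10, 95% interval from -0.28 to 0.19, limma adjusted p = 0.905). Probe sets 1460712_s_at and 1423388_at stood at 0.10 and -0.04. The dim probe set 1449663_at stood at 0.58 (SE 0.39, limma adjusted p = 0.593), from 10.7, 19.2 and 14.3 on the normal arrays to 24.1, 15.5 and 26.1 on the knockout arrays. Probe set 1460658_at was below the filter, at 1.2 or lower on every array. Ap1b1, the beta1 subunit, had 1 probe set (1416279_at), which read 302, 250 and 249 on the normal arrays and 204, 252 and 247 on the knockout arrays. The groups overlapped and the log2 difference was -0.19 (SE 0.13, 95% interval from -0.49 to 0.11, limma adjusted p = 0.606).

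Of the 22 probe sets, 18 passed the filter, 13 of them for the 6 subunits other than Ap1s3. None of these 13 passed (limma with Benjamini-Hochberg adjustment over the 27022 probe sets above the filter, where 0.588% passed), and by limma 0 had an unadjusted p under 0.05, compared with 11.5% of all probe sets. The groups did not overlap for 2 of the 13 (15.4%), Ap1s1 above and the dim Ap1s2 probe set below, against 17.9% of all probe sets. By sign 8 were lower and 5 higher, with a median log2 difference of -0.04 against -0.01 over all probe sets. For the 11 with a mean normal signal of 100 or more, the differences lay between -0.19 and 0.19 and their 95% intervals between -0.49 and 0.42. A fall of the size of Ap1s3 lies outside each of these 11 intervals, while changes within the intervals cannot be told from none with 3 arrays per group.

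**Figure D2:**
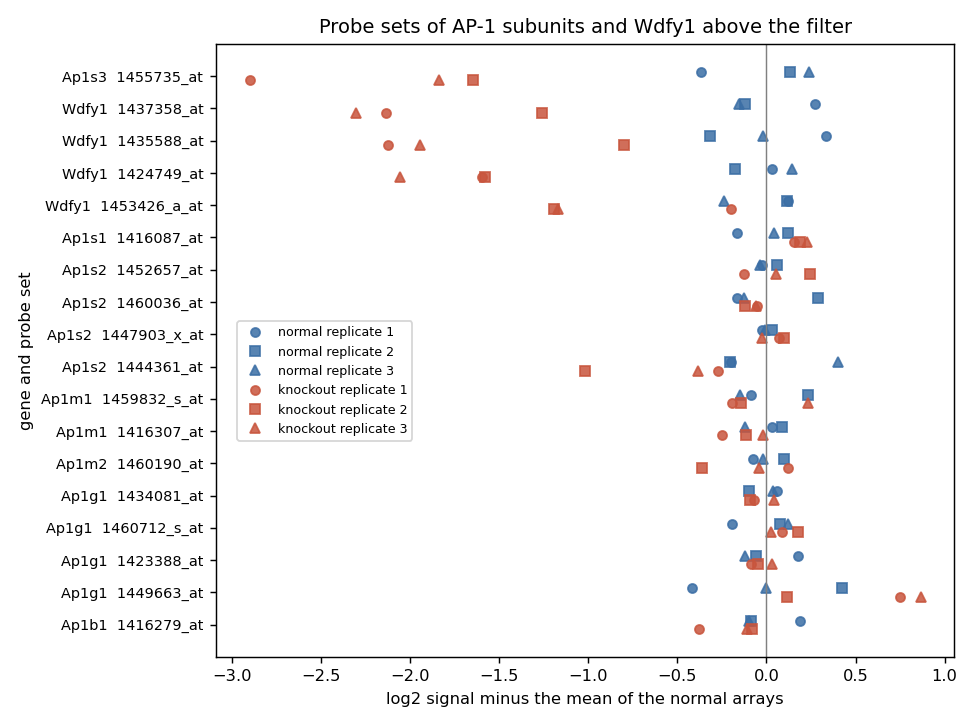
Log2 signal minus the mean of the normal arrays for each of the 18 probe sets above the filter, 1 symbol per array, normal in blue and knockout in red. Ap1s3 and the 3 brighter Wdfy1 probe sets have all knockout arrays at -0.80 or lower, while among the other subunits the knockout arrays reach -1.02 for the dim Ap1s2 probe set and 0.87 for the dim Ap1g1 probe set and lie between -0.38 and 0.24 for the rest.

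Ap1s3 and Wdfy1 are neighbours on chromosome 1, with 0 genes between them in the RefSeq gene table, so the protein-coding genes around them were examined, 10 on each side. Of these 20 genes, 18 had a probe set with their symbol and 12 lay above the filter. None passed (limma with Benjamini-Hochberg adjustment, where 0.61% of the 12464 genes tested passed), and by limma 0 had an unadjusted p under 0.05, compared with 11.7% of all genes. By sign 10 were higher and 2 lower in the knockout, with a median log2 difference of 0.15 against 0.00 over all genes, and a range from -0.16 to 0.41. The groups did not overlap for 2 of the 12 (16.7%), against 19.3% of all genes.

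The gene next to Wdfy1 on its far side is Mrpl44, a protein of the mitochondrial ribosome. It read 394, 504 and 457 on the normal arrays and 474, 482 and 514 on the knockout arrays, with overlapping groups and a log2 difference of 0.12 (SE 0.11, 95% interval from -0.13 to 0.37, limma adjusted p = 0.686). The gene next to Ap1s3 is Scg2, a secretogranin of neuroendocrine granules, which was below the filter, at 13 or lower on every array. The smallest p among the 12 belonged to the ephrin receptor Epha4 at 0.23 (SE 0.12, limma adjusted p = 0.499) and the sphingosine phosphate phosphatase Sgpp2 at 0.30 (SE 0.16, limma adjusted p = 0.519). Cul3, a scaffold of ubiquitin ligases, stood at -0.04 (SE 0.08) and was picked for mention after its values were seen.

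**Figure D3:**
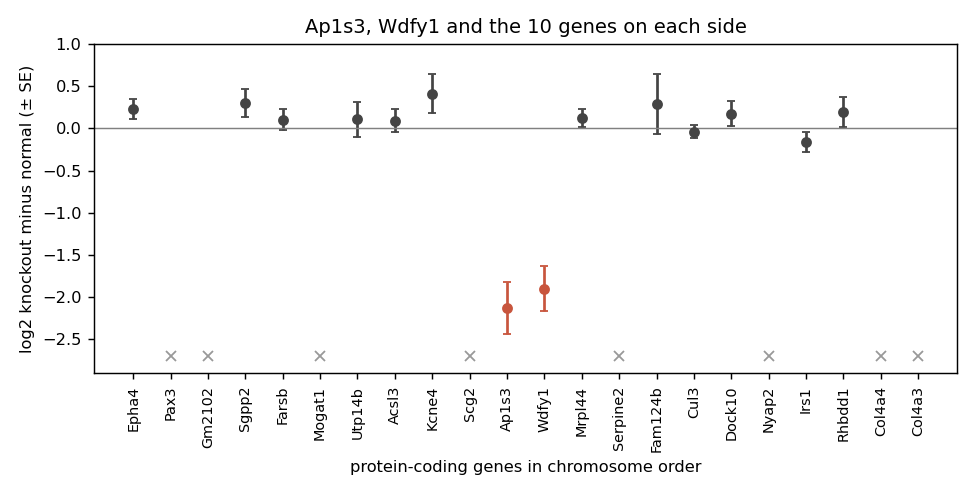
Log2 difference between knockout and normal arrays (± SE) for Ap1s3, Wdfy1 (both red) and the 10 protein-coding genes on each side, in chromosome order. Crosses at the bottom mark the 8 genes with no value above the filter. The pair stands at -2.13 and -1.90 and the 12 measured neighbours between -0.16 and 0.41.

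The genes whose profile over the 6 arrays was most like that of the pair lie on several chromosomes. Likeness was the root mean square difference between log2 profiles, each minus its own mean, so a smaller value means more alike. For Ap1s3 the nearest were Tmem87a (0.32, chromosome 2), a Golgi membrane protein, Hddc3 (0.39, chromosome 7), Thg1l (0.48, chromosome 11), Wdfy1 (0.50) and Kcnq1 (0.50, chromosome 7), a potassium channel with an overlap between groups. For Wdfy1 they were Hddc3 (0.19), Thg1l (0.31), a tRNA-histidine guanylyltransferase, the aspartic protease Ctse (0.32, chromosome 1), Mospd3 (0.35, chromosome 5) and Cuedc1 (0.37, chromosome 11), with Ap1s3 at rank 13 (0.50). Tmem87a read 309, 269 and 297 on the normal arrays and 47.8, 140 and 99.1 on the knockout arrays, so its knockout replicates stood in the same order as those of Ap1s3. Hddc3 read 267, 267 and 236 on the normal arrays and 57.1, 120 and 67.7 on the knockout arrays, highest in knockout replicate 2 as Wdfy1 was. These genes were found by their likeness to genes chosen for their difference, so the values are a description.

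The remaining trafficking machinery was covered by 8 lists with 101 genes, of which 97 were on the array by symbol and 92 lay above the filter. None passed over all genes tested (limma with Benjamini-Hochberg adjustment) and 10 (10.9%) had an unadjusted p under 0.05, near the 11.7% of all genes. By sign 39 were higher and 53 lower, with a median log2 difference of -0.02. The groups did not overlap for 20 of the 92 (21.7%), against 19.3% of all genes. By list, this held for 2 of 5 AP-2 genes (40%), 0 of 6 AP-3 genes and 5 of 8 AP-4 and AP-5 genes (62.5%). It held for 3 of 19 clathrin, GGA and AP-1 accessory genes (15.8%) and 2 of 12 cargo and sorting receptor genes (16.7%). The count was 1 of 21 for Wdfy, FYVE and other endosome genes (4.76%) and 5 of 15 for lipid kinase and Rab genes (33.3%). For Toll-like receptor 3 and 4 signalling genes it was 2 of 6 (33.3%).

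The other adaptor complexes share the layout of AP-1. In AP-2, which serves clathrin uptake at the plasma membrane, all 5 subunits were lower by sign, 0 passed and the median was -0.12. Ap2b1, its beta subunit, stood at -0.21 (SE 0.10, limma adjusted p = 0.470). Ap2a1, an alpha subunit, stood at -0.53 (SE 0.30, limma adjusted p = 0.540), and normal replicate 1 read 232 against 100 and 99.3 on the other normal arrays and 82.6 to 97.2 on the knockout arrays. In AP-3, the adaptor for lysosome-related organelles, 6 of 7 subunits were measured, with a median of -0.12 and 0 past the threshold, the smallest p being that of Ap3d1 (-0.17) and Ap3s1 (-0.13). In AP-4 and AP-5, 6 of 8 subunits were higher by sign, with a median of 0.18 and 0 past the threshold. Below an unadjusted p of 0.05 were 3 of these 8 genes (37.5%, compared with 11.7% over all genes), and 5 (62.5%) had groups that did not overlap, against 19.3%. Ap4m1, the AP-4 mu subunit, read 135, 125 and 115 on the normal arrays and 103, 93.8 and 95.4 on the knockout arrays, a log2 difference of -0.36 (SE 0.14, limma adjusted p = 0.394). Ap5s1, an AP-5 sigma subunit, stood at 0.41 (SE 0.17, limma adjusted p = 0.428).

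Among clathrin, the GGA adaptors and proteins that work with AP-1, 19 of 20 genes were measured, 13 lower and 6 higher by sign, with a median of -0.06, 0 past the threshold and 4 (21.1%) with an unadjusted p under 0.05, compared with 11.7% over all genes. Arfgef2, a guanine nucleotide exchange factor that activates Arf1 at the Golgi and endosomes, read 167, 191 and 144 on normal arrays 1 to 3 and 98.9, 118 and 104 on knockout arrays 1 to 3. The groups did not overlap at a log2 difference of -0.64 (SE 0.15, limma adjusted p = 0.156), which missed the threshold. Gga3, a monomeric clathrin adaptor of the same route, read 192, 176 and 168 on the normal arrays and 136, 128 and 141 on the knockout arrays, a log2 difference of -0.41 (SE 0.12, limma adjusted p = 0.278). The clathrin heavy chain gene Cltc stood at -0.10 and Arf1 at -0.01, values given after they were seen. Of AP-1 cargo and sorting receptors, 12 of 13 were measured, with a median of -0.03 and 0 past the threshold. E-cadherin (Cdh1) stood at 0.32 (SE 0.15, limma adjusted p = 0.444) and the endocytic receptor Lrp2, a protein of the proximal tubule, at -0.70 (SE 0.34, limma adjusted p = 0.465).

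Genes related to Wdfy1 likewise had 0 members past the threshold. Of the list of Wdfy, FYVE and other endosome proteins, 21 of 22 were measured, with a median of 0.00. In it 1 gene (4.76%) had an unadjusted p under 0.05 by limma, compared with 11.7% over all genes. That gene was Zfyve9, an endosomal anchor of TGF-beta signalling, which read 98, 106 and 98.3 on the normal arrays and 131, 128 and 139 on the knockout arrays (log2 difference 0.39, SE 0.13, limma adjusted p = 0.332). Zfyve19 stood at -0.43 (SE 0.22, limma adjusted p = 0.498). The other Wdfy genes measured, Wdfy2 and Wdfy3, stood at 0.10 and -0.09, and Wdfy4 was below the filter. Of the lipid kinase and Rab genes of endosomes all 15 were measured, with a median of 0.05, 0 past the threshold and 2 (13.3%) with an unadjusted p under 0.05, compared with 11.7% over all genes. These were Pik3r4, the regulatory subunit of the kinase that makes phosphatidylinositol 3-phosphate, at 0.54 (SE 0.19, limma adjusted p = 0.346) and Rab4a, a GTPase of fast recycling, at -0.42 (SE 0.15, limma adjusted p = 0.358). Of Toll-like receptor 3 and 4 signalling genes 6 of 11 were measured, with a median of 0.01 and 0 past the threshold. The smallest p belonged to Ly96, the co-receptor of Tlr4, at 0.44 (SE 0.21, limma adjusted p = 0.459) and to the transcription factor Irf3 at -0.20 (SE 0.10, limma adjusted p = 0.496).

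**Figure D4:**
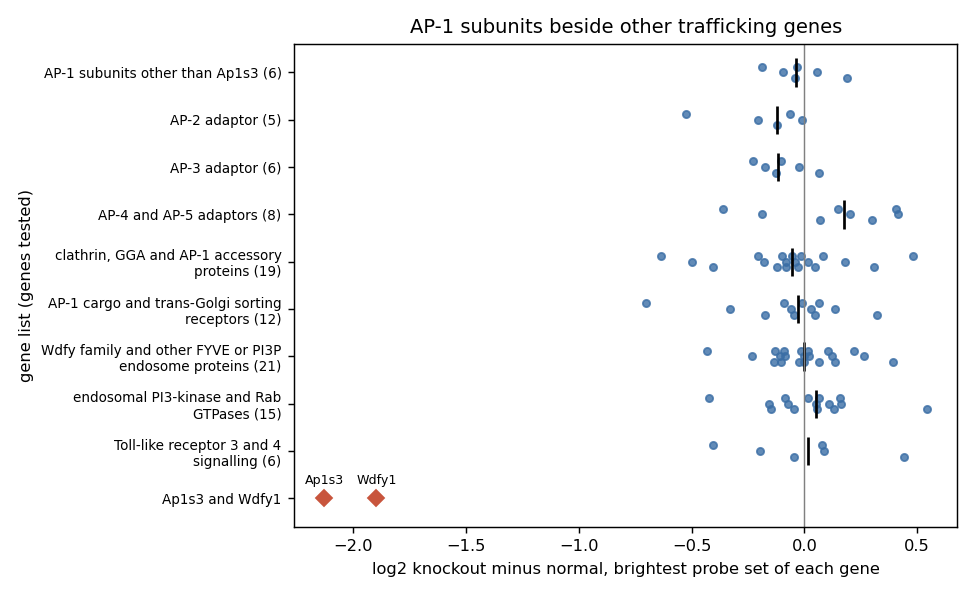
Log2 difference between knockout and normal arrays for the brightest probe set of each gene, by list, with the number of genes tested in brackets and black bars at the medians. The 6 other AP-1 subunits lie between -0.19 and 0.19, the 92 trafficking genes between -0.70 and 0.54, and Ap1s3 and Wdfy1 (red diamonds) at -2.13 and -1.90.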

How the data were processed

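The deposited values are 1 linear signal intensity per probe set and array, which, per the submitters' processing notes, the authors computed with MAS5. The MAS5 version and settings are not stated there. The trimmed mean (2nd to 98th percentile) was 150.0 on each array, so no further scaling was applied. Values under 1.7, the 10th percentile of positive values, were set to 1.7 before log2. After leaving out 64 control probe sets, those with a mean log2 signal above the 40th percentile (a signal of 14.7) were kept, 27022 in all, and the brightest kept probe set stood for its gene, which gave 12464 genes. The groups were compared in limma 3.58.1 under R 4.3.3, by lmFit and eBayes with trend, and p-values were adjusted by Benjamini-Hochberg over the kept probe sets at a threshold of 0.05. SE values come from this fit, also where no test is given. The script was tested on simulated data.

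Symbols come from the platform annotation, and gene order and promoters from RefSeq (GRCm38.p6). The array values carry no genome build. The members and gene lists were chosen with earlier results of these data known. In each list the genes named are up to 4 past the threshold and otherwise the 2 of smallest p. Genes most like the pair are the 5 nearest for each. The number of arrays, 3 per group, limits the precision, and p-values reflect only the spread among these samples, which may be technical in part. Alternatives covered scaling, the filter on dim probe sets, log2(signal + 16), variance models, a block for the replicate number, averaging the probe sets of a gene and leaving out arrays.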

Additional observations from a re-analysis of the deposited data

How the results depend on the processing

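The Ap1s3 difference stayed between -2.37 and -1.74 and that of Wdfy1 at -1.64 or lower under the alternatives run, except that the mean of all Wdfy1 probe sets gave -1.01, since it includes dim ones. Leaving out 1 array at a time gave -2.37 to -1.74 for Ap1s3 and -2.22 to -1.70 for Wdfy1. The counts of other AP-1 subunits, neighbours and trafficking genes past the threshold were 0 in all 17 alternatives by limma, while 4 to 13 trafficking genes had an unadjusted p under 0.05. The sign of the brightest probe set of each other subunit held under both scalings but not under all alternatives. Ap1m1 turned to 0.08 without normal replicate 2, Ap1m2 to 0.04 and Ap1s2 to -0.04 without knockout replicate 2, and Ap1g1 to 0.12 and Ap1s2 to -0.19 with averaged probe sets, among others. The count over all genes was less steady, at 76 as reported. It was 127 with arrays scaled to the same median, 15 without the intensity trend, 5 with no filter on dim probe sets and 44 with the replicate block, under which the counts of subunits, neighbours and trafficking genes past the threshold were also 0. Leaving out 1 array at a time gave 14 to 62, and leaving out normal and knockout replicates 1 together, an alternative chosen after seeing the data, gave 9. Deviations of arrays with the same replicate number correlated at 0.08, -0.11 and -0.20, and those with unlike numbers from -0.23 to 0.30. These values show no pairing by number, but with 3 arrays per group they cannot exclude it. The cause of the changes in count was not tested. Signals near the filter, such as the dim Ap1s2, Ap1g1 and Wdfy1 probe sets, scatter widely on a log scale.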
